A study of Mus musculus with 9 samples.

Results

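The genes described here are 36 genes of skeletal muscle contraction and metabolism, read in mouse skin. They were taken by symbol from a list that was chosen with earlier results of these data known. All 36 were found among the 57180 genes of the count table. Counts of members beside shares of all genes are therefore description, not independent support. RNA sequencing covered 9 libraries of skin from BALB/c nude mice, an athymic and nearly hairless strain, in 3 groups of 3. NoUVB skin received no ultraviolet B, and no saline or mRNA is named for it. UVB-Saline and UVB-hCOL3A1 skin had dorsal ultraviolet B on alternate days over 8 weeks, from 60 mJ/cm² (1 minimal erythemal dose) up to 240 mJ/cm² (4 minimal erythemal doses). The former group is labelled with saline and the latter with hCOL3A1, which the series title ties to type III collagen delivered as mRNA. In UVB-Saline against NoUVB, ultraviolet and saline cannot be told apart. Neither the age and sex of the mice nor how the mRNA was packaged, dosed and given is stated in the labels, which name day 28 for collection but no starting day. Libraries are not tied to animals there either. The p-values therefore rest on the spread between libraries, and some of that spread may be technical.

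Skeletal muscle fibres are packed with sarcomeres, in which thick filaments of myosin pull on thin filaments of actin that are anchored at Z-discs. Calcium released from the sarcoplasmic reticulum binds troponin on the thin filament and so permits the pull, and creatine kinase and glycolysis refill the ATP that the myosin motors spend. Mouse skin has a sheet of striated muscle beneath it, the panniculus carnosus, made mostly of fast fibres, so a skin sample can carry muscle RNA. Skin also holds small smooth muscles, in vessel walls and at hair follicles, which use other isoforms of many of these genes.

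All 9 libraries held fast skeletal muscle transcripts, and 3 of the 5 slow isoforms on the list were nearly absent. Levels are given as CPM, the counts-per-million unit, with library sizes scaled by the trimmed mean of M values. To compare genes, CPM was divided by transcript length in kilobases. On that scale the highest mean levels over the 9 libraries were 128 for the skeletal actin Acta1, 88.1 for tropomyosin Tpm2, 76.4 for the fast troponin T Tnnt3, 76.2 for the fast troponin I Tnni2 and 49.7 for the myosin heavy chain Myh1. Tpm2 is also made in smooth muscle. Tnni2 was above Myh1 in all 9 libraries, by 1.38 to 2.04 times. Acta1 was above Tpm2 and Tpm2 above Tnnt3 in 7 of 9 each, and Tnnt3 above Tnni2 in 4 of 9, so the order of those 4 genes varied from library to library. Slow troponins and Myh7 were near the bottom of the order, while Mybpc1, the slow myosin-binding protein C, which fast fibres also make, was at 13.3. Estimated counts per library were 0 to 1 for Myh7, the slow and cardiac myosin heavy chain, 2 to 11 for the slow troponin I Tnni1 and 0 to 3 for the slow troponin C Tnnc1. These 3 genes did not pass the filter on low counts, and 33 members did. The counts and medians below cover those 33. One of them, Smpx, passed only through the UVB-hCOL3A1 libraries, so its place among the tested genes was itself set by its level in that group. Counts are therefore also given without it.

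Cardiac muscle markers were low. The 9 on the list summed to 2.516 to 9.214 CPM per library, and 2 of them passed the filter on low counts. Myl7 and Gata4 had no count in any library, and Myh6 had 0 to 2. Total estimated counts were 7640130 to 12927400 per library. The ribosomal Rn18s-rs5 took 7.71% of them in NoUVB 2 and 34.3% to 55.3% in the other 8 libraries. In bulk skin, fewer muscle cells and less RNA per muscle cell cannot be told apart.

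Muscle transcripts were most abundant in the UVB-hCOL3A1 group, and varied widely within the other 2 groups. As a share of counts without Rn18s-rs5, the 36 genes made up 0.919%, 0.316% and 0.293% in NoUVB 1 to 3. The share was 0.197%, 0.75% and 0.521% in UVB-Saline 1 to 3, and 0.833%, 0.895% and 1.18% in UVB-hCOL3A1 1 to 3. Group means were 0.51% ± 0.355 (SD, n = 3), 0.489% ± 0.278 (SD, n = 3) and 0.971% ± 0.187 (SD, n = 3). NoUVB 1 thus lay inside the range of the UVB-hCOL3A1 libraries, while no UVB-Saline library reached that range. The highest library held 6.03 times the share of the lowest. The Wilson 95% interval of each share spans counting error only, as in NoUVB 1 from 0.91% to 0.928%, far less than the spread between libraries. Titin, Ttn, the giant spring protein of the sarcomere and by far the longest of these transcripts, gave 49.6% to 58.2% of the members' counts in each library.

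**Figure D1:**
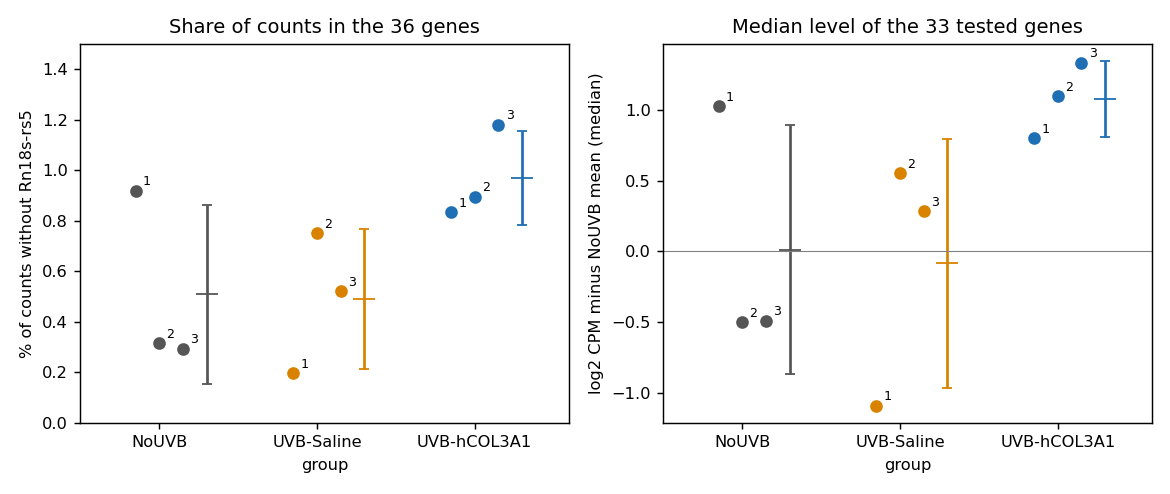
Left, percent of counts without Rn18s-rs5 that fall in the 36 muscle genes; right, median over the 33 tested genes of log2 CPM minus the gene's NoUVB mean. Each point is 1 library with its replicate number, and the bar beside each group is mean and SD of 3 libraries. UVB-hCOL3A1 libraries lie between 0.833% and 1.18%, NoUVB 1 lies among them at 0.919%, and UVB-Saline 1 is lowest at 0.197%.

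The members moved together from library to library. The median over the 33 tested members of log2 CPM minus the gene's NoUVB mean was 1.03, -0.50 and -0.49 in NoUVB 1 to 3. It was -1.09, 0.55 and 0.29 in UVB-Saline 1 to 3, and 0.80, 1.098 and 1.33 in UVB-hCOL3A1 1 to 3. UVB-Saline 1 was the lowest of the 9 libraries for 26 of the 33 members, NoUVB 3 for 4 and NoUVB 2 for 3. UVB-hCOL3A1 3 was the highest for 23, UVB-hCOL3A1 2 for 6, NoUVB 1 for 3 and UVB-hCOL3A1 1 for 1. As a description over 9 libraries that share their scaling, Pearson's r between a member's log2 CPM and the mean of the other members was over 0.8 for 31 members, with nebulin, Neb, at 0.9963. The exceptions were Myh4 at 0.4822 and Tnnt1 at 0.2916.

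**Figure D2:**
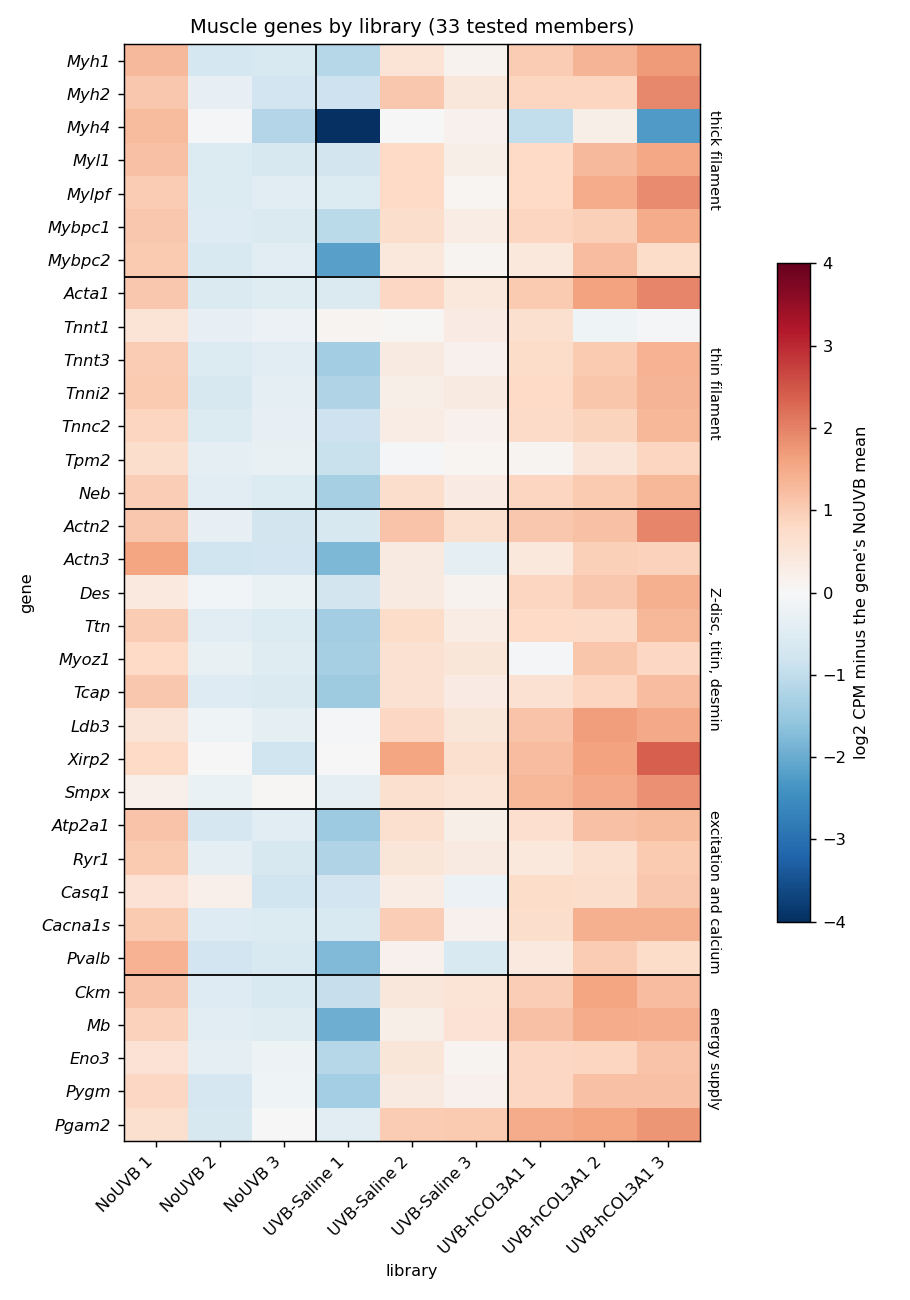
Each row is 1 of the 33 tested muscle genes, ordered by role, and each column 1 library; colour is log2 CPM minus the gene's mean over the 3 NoUVB libraries. Most rows share the same pattern, high in NoUVB 1 and the UVB-hCOL3A1 libraries and lowest in UVB-Saline 1, and the rows of Myh4 and Tnnt1 depart from it.

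Against UVB-Saline, the UVB-hCOL3A1 group had higher mean levels for 32 of 33 members, where 46.1% of all genes tested had a positive difference, but no member passed the test. The call rule was an adjusted p under 0.05 in edgeR's quasi-likelihood test, with Benjamini-Hochberg adjustment over all 17168 genes tested. It called 0 members higher and 0 lower, beside a background of 0% of all genes in each direction. At an unadjusted p under 0.05, 10 members were higher and 0 lower, where 5.97% of all genes tested were higher and 5.32% lower. The 3 libraries of UVB-hCOL3A1 lay above all 3 of UVB-Saline for 23 members and below them for 0, against 8.95% and 8.33% of all genes. Because the members moved together over the libraries, these counts are not independent results, and members are not replicates. The median log2 difference of the 33 members was 1.01, a 2.01-fold higher level, while the median of all genes tested was -0.02. Without Smpx, 31 of 32 were higher, 9 at an unadjusted p under 0.05 and 22 without overlap. DESeq2 called 2 members higher, Des and Ldb3, beside 1.03% of the 12102 genes to which it gave an adjusted p, and gave none for 7 members. limma voom called 0, beside 0% of all genes in each direction. Without UVB-Saline 1, the library lowest in most members, the median was 0.64, with 23 members above both remaining UVB-Saline libraries, against 12.8% of genes in that setting.

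Against NoUVB the same group was also higher in 32 of 33 members, beside 49.2% of all genes, again with 0 called in either direction. The background of calls was 0.0408% of all genes higher and 0% lower. Unadjusted, 8 members were higher and 0 lower, against 6.29% of genes higher and 5.52% lower. Groups did not overlap for 9 members, against 10.7% of genes higher, and these were Actn2, Des, Mb, Eno3, Pgam2, Casq1, Ldb3, Xirp2 and Smpx. Without Smpx, 31 of 32 were higher, 7 at an unadjusted p under 0.05 and 8 without overlap. The median log2 difference was 0.92 for members and -0.01 for all genes. DESeq2 called 3 members higher (Pgam2, Ldb3 and Des), beside 1.16% of the 15545 genes with an adjusted p. With voom 0 were called, beside 0% of all genes in each direction. NoUVB 1 weighed on this comparison. Without it the median was 1.62 and 32 of 34 tested members did not overlap, against 15.5% of genes. Without UVB-hCOL3A1 1 the number not overlapping was 22 of 34, against 16.4% of genes. UVB-Saline 1 is in neither group compared here, but it bears on the filter, the scaling, the adjustment and the estimate of the spread. Leaving out UVB-Saline 1 brought 3 members (Pgam2, Ldb3 and Des) under the threshold, where 0.681% of genes were called higher. Leaving out UVB-Saline 3 brought 1, Ldb3, where 1.02% of genes were called higher. Both comparisons use the UVB-hCOL3A1 libraries, so their values are not independent of each other. Nor are the members, which moved together, so a count of members is not a count of separate results.

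UVB-Saline and NoUVB skin showed no common direction. Of the 33 members 12 were higher and 21 lower in UVB-Saline, where 51.8% of all genes were higher, with a median log2 difference of -0.06 beside 0.01 for all genes. None was called, with backgrounds of 0% higher and 0.0175% lower. Unadjusted, 0 were higher and 0 lower, against 4.93% and 4.60% of all genes. Groups overlapped for every tested member, where 7.18% of genes were higher and 6.61% lower without overlap. DESeq2 called 0 members too, beside 0.236% of genes higher and 0.411% lower. With voom 0 were called, beside 0% of genes higher and 0.0116% lower. The sign of the median rested on single libraries, being 0.58 without NoUVB 1 and 0.29 without UVB-Saline 1.

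**Figure D3:**
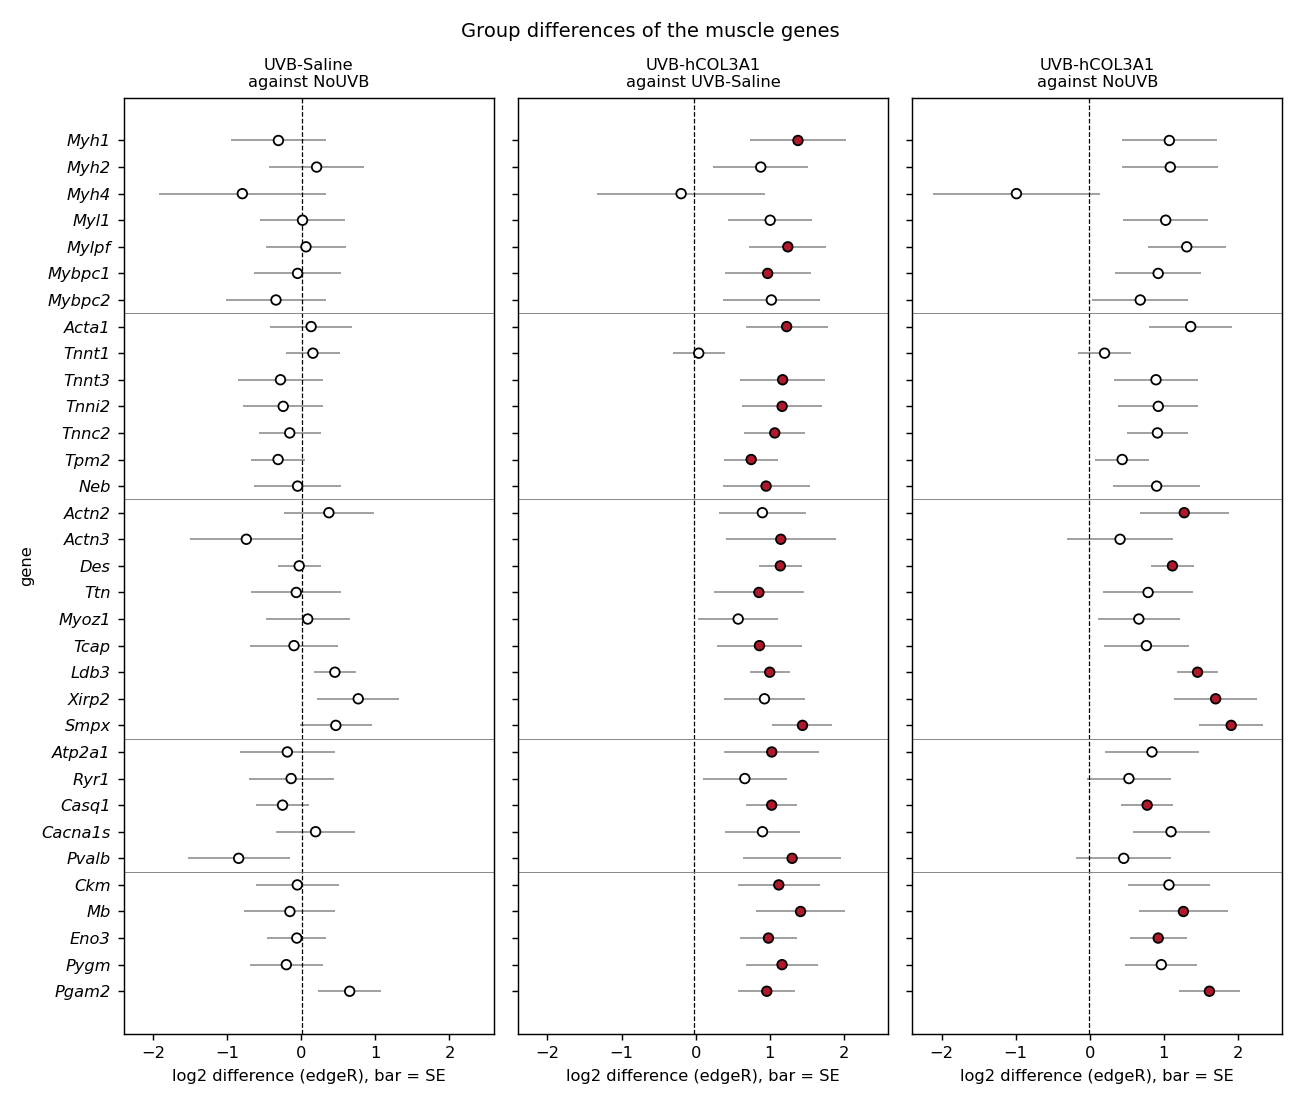
Log2 difference of each tested member from the edgeR fit (point) with its standard error (bar), in 3 panels for the 3 comparisons; filled points mark genes whose 3 libraries in 1 group all lie above the 3 of the other, and the dashed line is the median of all genes tested. In the middle panel 32 of 33 points lie above 0 and 23 are filled; in the left panel none is filled.

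Thick filament members include the myosin motors, their light chains and myosin-binding protein C. For UVB-hCOL3A1 against UVB-Saline, 6 of the 7 tested were higher in mean level, 3 without overlap (Myh1, Mylpf and Mybpc1). Here and for the groups below, 46.1% of all genes were higher in this comparison, 8.95% without overlap. Against NoUVB these shares were 49.2% and 10.7%. Myh1, the heavy chain of fast type IIX fibres and the highest of this group, had 460, 116 and 122 CPM in NoUVB 1 to 3, 83.6, 273 and 204 in UVB-Saline and 380, 476 and 607 in UVB-hCOL3A1. All UVB-hCOL3A1 libraries were above all UVB-Saline ones, and NoUVB 1 lay inside the UVB-hCOL3A1 range. Its log2 difference was 1.38 ± 0.65 (SE) from UVB-Saline (adjusted p = 0.478) and 1.07 ± 0.64 from NoUVB (adjusted p = 0.569). Mylpf, the fast regulatory light chain, differed from UVB-Saline by 1.25 ± 0.52 (adjusted p = 0.432). Mybpc1 and Mybpc2, the slow and fast myosin-binding proteins C, differed by 0.97 ± 0.58 and 1.02 ± 0.65, and Myl1, a fast light chain, by 1.01 ± 0.56. None of these 4 passed the test.

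Thin filament members are actin, tropomyosin, the troponins that sense calcium and nebulin, which runs along the filament. All 7 tested were higher in UVB-hCOL3A1 than in UVB-Saline, 6 of them without overlap, and none passed. Nebulin, with the highest CPM of this group, had 347, 127 and 119 CPM in NoUVB, 69.4, 283 and 219 in UVB-Saline and 313, 357 and 435 in UVB-hCOL3A1. The UVB-hCOL3A1 libraries were above every UVB-Saline library, and NoUVB 1 fell inside their range. Neb differed by 0.95 ± 0.59 from UVB-Saline and 0.90 ± 0.59 from NoUVB (adjusted p = 0.595 and 0.609). Acta1 had 216, 68.1 and 73.3 CPM in NoUVB, 68.5, 183 and 139 in UVB-Saline and 212, 310 and 394 in UVB-hCOL3A1, a difference of 1.23 ± 0.55 from UVB-Saline (adjusted p = 0.460). Its lowest library was NoUVB 2, not UVB-Saline 1. The fast troponins Tnnt3, Tnni2 and Tnnc2 differed from UVB-Saline by 1.18 ± 0.57, 1.17 ± 0.54 and 1.07 ± 0.41, while the slow troponin T Tnnt1 differed by 0.04 ± 0.35. Tnnt1 was low throughout, from 1.25 CPM in NoUVB 2 to 2.59 in UVB-hCOL3A1 1, and its 3 UVB-hCOL3A1 libraries (2.59, 1.41 and 1.51 CPM) spanned those of UVB-Saline (1.75, 1.64 and 2.06). Tpm2 had 278, 130 and 138 CPM in NoUVB, 92.9, 166 and 181 in UVB-Saline and 186, 244 and 310 in UVB-hCOL3A1. The last group lay above UVB-Saline by a narrow margin, with a difference of 0.75 ± 0.37 (adjusted p = 0.489).

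Z-disc proteins tie neighbouring sarcomeres together, titin spans from there to the middle of the sarcomere, and desmin filaments link the discs of a fibre. This group held the smallest p-values of both comparisons with UVB-hCOL3A1. All 9 were higher there than in UVB-Saline, 6 without overlap, and higher than in NoUVB, 5 without overlap. Smpx is among the 9, the 6 and the 5, and its level in UVB-hCOL3A1 brought it into the test. Desmin, Des, had 63.8, 44.5 and 39.9 CPM in NoUVB, 29.2, 61.9 and 53.6 in UVB-Saline and 87.2, 102 and 131 in UVB-hCOL3A1. Every UVB-hCOL3A1 library was above the other 6. The log2 difference was 1.14 ± 0.29 from UVB-Saline (adjusted p = 0.251) and 1.12 ± 0.29 from NoUVB (adjusted p = 0.205). Desmin is also made in smooth muscle.

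Ldb3, a PDZ and LIM domain protein that binds alpha-actinin at the Z-disc, had 9.66, 5.89 and 5.10 CPM in NoUVB, 6.36, 11.8 and 9.43 in UVB-Saline and 14.9, 21.5 and 19.3 in UVB-hCOL3A1. Again the 3 UVB-hCOL3A1 libraries were the highest of the 9. It differed by 1.00 ± 0.27 from UVB-Saline (adjusted p = 0.259) and 1.45 ± 0.28 from NoUVB (adjusted p = 0.126, the smallest of any member). Smpx, a small muscle protein encoded on the X chromosome, had 0.568, 0.357 and 0.481 CPM in NoUVB, 0.308, 0.822 and 0.759 in UVB-Saline and 1.45, 1.69 and 2.16 in UVB-hCOL3A1. No library of the other 2 groups reached 1 CPM, and its estimated counts were only 3 to 20. Smpx differed by 1.443 ± 0.40 from UVB-Saline and 1.91 ± 0.43 from NoUVB, with no p given since its level in UVB-hCOL3A1 brought it into the test. Xirp2, an actin-binding repeat protein, had 57.5, 33.3 and 18.9 CPM in NoUVB, 33.7, 99.6 and 51.6 in UVB-Saline and 77.6, 102 and 174 in UVB-hCOL3A1. UVB-Saline 2 fell inside the UVB-hCOL3A1 range, and all NoUVB libraries were below it. The difference from NoUVB was 1.70 ± 0.56 (adjusted p = 0.319).

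Titin itself had 3091, 1103 and 1032 CPM in NoUVB, 586, 2542 and 1855 in UVB-Saline and 2621, 2612 and 3779 in UVB-hCOL3A1. The margin between UVB-Saline 2 and the lowest UVB-hCOL3A1 library was small, and the difference of 0.85 ± 0.61 did not pass (adjusted p = 0.647). Actn3, the alpha-actinin of fast fibres, had 14.5, 2.68 and 2.69 CPM in NoUVB, 1.23, 6.17 and 3.69 in UVB-Saline and 6.40, 9.50 and 9.28 in UVB-hCOL3A1. NoUVB 1 was the highest library for this gene. Actn3 differed by -0.74 ± 0.76 between UVB-Saline and NoUVB (adjusted p = 0.809) and by 1.15 ± 0.74 between UVB-hCOL3A1 and UVB-Saline (adjusted p = 0.608). Actn2, the other muscle alpha-actinin, the titin cap Tcap and the calcineurin-binding Myoz1 differed from UVB-Saline by 0.90 ± 0.58, 0.86 ± 0.57 and 0.58 ± 0.54.

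Genes of excitation and calcium handling include the voltage sensor Cacna1s, the release channel Ryr1, the store protein Casq1, the pump Atp2a1 and the cytosolic buffer parvalbumin. All 5 were higher in UVB-hCOL3A1 than in UVB-Saline, 3 without overlap, and none passed. Atp2a1, the calcium pump of fast fibres and the highest of these genes, had 135, 38.0 and 44.8 CPM in NoUVB, 22.1, 95.8 and 71.9 in UVB-Saline and 98.8, 140 and 149 in UVB-hCOL3A1. UVB-Saline 2 came within a few CPM of the lowest UVB-hCOL3A1 library. Its difference of 1.03 ± 0.64 had an adjusted p of 0.598. Casq1 had 12.4, 9.56 and 4.71 CPM in NoUVB, 4.72, 10.2 and 6.94 in UVB-Saline and 13.9, 13.5 and 17.7 in UVB-hCOL3A1, with the last 3 the highest of the 9. It differed by 1.03 ± 0.35 from UVB-Saline (adjusted p = 0.348) and by -0.25 ± 0.36 between UVB-Saline and NoUVB. Pvalb, which speeds relaxation in fast fibres, had 7.95, 1.61 and 1.83 CPM in NoUVB, 0.719, 3.29 and 1.84 in UVB-Saline and 3.89, 6.02 and 4.97 in UVB-hCOL3A1. It had the most negative difference of any member between UVB-Saline and NoUVB, -0.85 ± 0.69 (adjusted p = 0.751), with NoUVB 1 alone far above the other NoUVB libraries. Ryr1 and Cacna1s differed from UVB-Saline by 0.66 ± 0.57 and 0.90 ± 0.51.

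Energy genes include creatine kinase, myoglobin and muscle enzymes of glycogen breakdown and glycolysis. All 5 were higher in UVB-hCOL3A1 than in UVB-Saline without overlap, by 0.96 to 1.42 on the log2 scale. An unadjusted p under 0.05 was reached by 4, against 5.97% of all genes, but none passed (adjusted p from 0.396 to 0.498). Creatine kinase Ckm, the highest, had 49.1, 15.6 and 14.6 CPM in NoUVB, 11.7, 30.8 and 32.5 in UVB-Saline and 44.2, 66.9 and 52.7 in UVB-hCOL3A1. NoUVB 1 again lay within the last group. The difference from UVB-Saline was 1.12 ± 0.55. Pgam2, the muscle phosphoglycerate mutase of glycolysis, had 5.11, 1.97 and 3.17 CPM in NoUVB, 2.26, 6.58 and 6.72 in UVB-Saline and 9.30, 9.97 and 11.2 in UVB-hCOL3A1. Here the UVB-hCOL3A1 libraries stood above the other 6, and the difference from NoUVB was 1.61 ± 0.41 (adjusted p = 0.193). Myoglobin Mb, the oxygen store, differed from UVB-Saline by 1.42 ± 0.60, the muscle enolase Eno3 by 0.98 ± 0.38 and the glycogen phosphorylase Pygm by 1.17 ± 0.48.

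The largest positive differences of UVB-Saline from NoUVB were in Xirp2 (0.77 ± 0.55, adjusted p = 0.715), Pgam2 (0.65 ± 0.42, adjusted p = 0.677), Smpx (0.47 ± 0.49, adjusted p = 0.812) and Ldb3 (0.45 ± 0.29, adjusted p = 0.669). Their UVB-Saline and NoUVB libraries overlapped, as the values above show.

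The adult fast myosin heavy chain genes were compared by their share, since a share does not move with the amount of muscle RNA as a whole. In RefSeq, Myh3, Myh2, Myh1, Myh4, Myh8 and Myh13 follow each other on chromosome 11 with no other coding gene between Myh2, Myh1 and Myh4. Coding sequences of Myh1 and Myh2 are identical at 91.0% of aligned bases, those of Myh1 and Myh4 at 90.1%. Between 0.511% and 2.49% of the 150-base windows of these 3 transcripts also occur in another myosin gene, so reads there can be assigned to the wrong gene.

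Of the summed level per kilobase of Myh1, Myh2, Myh4 and Myh7, Myh1 made up 66.3%, 56.4% and 69.3% in NoUVB 1 to 3, 71.3%, 62.1% and 61.0% in UVB-Saline and 74.8%, 75.0% and 72.9% in UVB-hCOL3A1. Its share was highest in the UVB-hCOL3A1 libraries, none of which overlapped the other 6. Myh2, the heavy chain of type IIA fibres, made up 17.6%, 22.5% and 19.2%, then 27.2%, 27.4% and 23.4%, then 20.6%, 16.4% and 26.0%. On the CPM scale it had 122, 46.1 and 33.7 in NoUVB, 31.9, 121 and 78.3 in UVB-Saline and 105, 104 and 217 in UVB-hCOL3A1, so that UVB-Saline 2 exceeded 2 of the UVB-hCOL3A1 libraries. Myh2 differed by 0.88 ± 0.64 from UVB-Saline (adjusted p = 0.656).

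Myh4, the heavy chain of the fastest type IIB fibres, was the 1 tested member with a lower mean level in UVB-hCOL3A1 than in the other groups. Its share was 16.1%, 21.1% and 11.5% in NoUVB, 1.42%, 10.5% and 15.6% in UVB-Saline and 4.57%, 8.57% and 1.14% in UVB-hCOL3A1. The UVB-hCOL3A1 shares were all below the NoUVB shares, and overlapped those of UVB-Saline because of UVB-Saline 1. Myh4 had 111, 42.8 and 19.9 CPM in NoUVB, 1.64, 45.6 and 51.5 in UVB-Saline and 23.0, 53.8 and 9.39 in UVB-hCOL3A1. The 67.3-fold range between its highest and lowest library was the widest of the members with more than 3 counts in each library. Counts in its lowest library numbered 16, where the Wilson 95% interval of its share of the myosin counts ran from 0.865% to 2.27%. Log2 differences were -0.80 ± 1.13 for UVB-Saline against NoUVB, -0.20 ± 1.13 for UVB-hCOL3A1 against UVB-Saline and -0.99 ± 1.13 for UVB-hCOL3A1 against NoUVB (adjusted p = 0.868, 0.970 and 0.782). Each was smaller than its standard error. The CPM of UVB-hCOL3A1 3 was the highest of the 9 for Myh1 and the second lowest for Myh4.

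**Figure D4:**
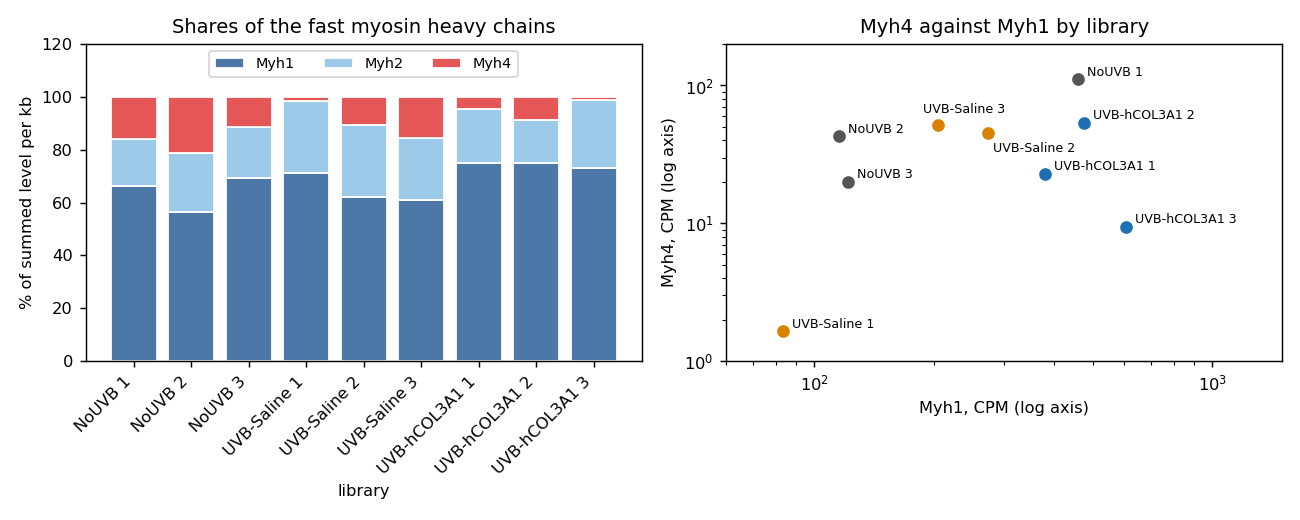
Left, stacked bars of the shares of Myh1, Myh2 and Myh4 in the summed level per kilobase of the adult myosin heavy chains, 1 bar per library; right, Myh4 against Myh1 in CPM on log axes, 1 point per library coloured by group (grey NoUVB, orange UVB-Saline, blue UVB-hCOL3A1). Myh4 takes 11.5% to 21.1% in NoUVB and 1.14% to 8.57% in UVB-hCOL3A1, and UVB-Saline 1 has little of it, 1.42%.

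The stretches before the start of these neighbouring genes are shown because Myh4 departed from Myh1 and Myh2, with Acta1 as a member that followed the rest. Each is the 250 bases before the RefSeq start on GRCm38.p6, read 5′ to 3′ on the strand of the gene. Capitals mark matches, on either strand, to the E-box CANNTG, bound by MyoD-type factors, the MEF2 site or the CArG box of serum response factor. Marked matches do not overlap one another. Myh2 is at chr11:67170777-67171026, plus strand, Myh1 at chr11:67199852-67200101, plus strand, Myh4 at chr11:67237562-67237811, plus strand, and Acta1 at chr8:123894776-123895025, minus strand.
Myh2: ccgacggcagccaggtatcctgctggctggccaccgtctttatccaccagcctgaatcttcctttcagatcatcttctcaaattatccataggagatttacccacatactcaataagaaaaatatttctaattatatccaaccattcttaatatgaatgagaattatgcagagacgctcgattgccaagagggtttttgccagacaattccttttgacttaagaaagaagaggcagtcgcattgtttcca
Myh1: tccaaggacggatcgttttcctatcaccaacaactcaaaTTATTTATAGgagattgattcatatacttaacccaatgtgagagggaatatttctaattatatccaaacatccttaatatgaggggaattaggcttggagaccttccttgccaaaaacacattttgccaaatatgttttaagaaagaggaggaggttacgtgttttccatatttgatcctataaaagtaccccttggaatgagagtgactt
Myh4: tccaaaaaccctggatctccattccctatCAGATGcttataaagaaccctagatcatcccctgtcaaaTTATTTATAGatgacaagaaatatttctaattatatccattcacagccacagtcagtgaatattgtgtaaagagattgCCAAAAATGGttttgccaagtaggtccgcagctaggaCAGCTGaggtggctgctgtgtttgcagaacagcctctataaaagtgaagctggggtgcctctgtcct
Acta1: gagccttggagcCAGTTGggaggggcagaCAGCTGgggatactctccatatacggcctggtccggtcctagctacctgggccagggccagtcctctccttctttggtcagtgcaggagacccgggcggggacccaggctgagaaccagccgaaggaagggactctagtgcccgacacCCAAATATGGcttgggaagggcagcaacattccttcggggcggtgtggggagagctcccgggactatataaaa

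The MEF2 match is at -211 from the start in Myh1 and at -182 in Myh4, in the same 10 letters. CArG matches are at -104 in Myh4 and -73 in Acta1. Of the 3 heavy chains, Myh4 alone has E-box matches in this window, and Myh2 has no match of the 3 kinds. Each window ends at its own RefSeq start, so the windows need not cover like stretches, and other starts could give other matches. Among the 36 windows that RefSeq gives for 30 of the members, 80.6% hold an E-box, 16.7% a MEF2 match and 11.1% a CArG match, beside 66.2%, 1.69% and 1.47% of all 32841 windows. A match is a description of the letters, not evidence of binding.

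Relative levels describe each member against the others. After the library's median member deviation was subtracted from each log2 CPM, Myh4 stood at 0.25, 0.41 and -0.70 in NoUVB and at -1.78, -0.86 and -3.59 in UVB-hCOL3A1, lower without overlap. Tpm2, Ryr1 and Tcap were also lower relative to the other members in UVB-hCOL3A1 than in NoUVB, by -0.57, -0.37 and -0.16 on the log2 scale, and Acta1 and Mb were higher by 0.46 and 0.31, each without overlap. Against UVB-Saline, Myh1 and Tnnt3 were relatively higher by 0.36 and 0.17 and Ryr1 lower, by -0.34. Pvalb, Mybpc2 and Tnnt3 were relatively lower in UVB-Saline than in NoUVB by -0.64, -0.45 and -0.18, and Actn2 and Acta1 higher by 0.47 and 0.33. Relative levels did not overlap for 6 of 33 members in UVB-hCOL3A1 against NoUVB, 3 against UVB-Saline and 5 in UVB-Saline against NoUVB. These values carry no test and have no background from other genes, so no member is singled out by them. Across the libraries the mean log2 CPM of the 14 fast members exceeded that of the 2 slow members tested, Tnnt1 and Mybpc1, by 0.29 in UVB-Saline 1 and by 1.06 to 1.91 in the other 8. Tnnt1 stayed between 1.25 and 2.59 CPM and did not move with the members, so this gap is not free of the amount of muscle RNA. The fast members include Myh4, at -4.64 from its NoUVB mean in UVB-Saline 1.

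Genes outside the list were also ranked by their likeness to it. Among 14404 other tested genes whose log2 CPM averaged 1 or more, the 12 with the highest Pearson r to the mean member level over the 9 libraries were Scn4a (0.9955), 3425401B19Rik, Eef1a2, Pfkm, Mypn, Lmod3, Myom2, Klhl31, Klhl41, Myot, Cmya5 and Pde4dip (0.9698). Scn4a is the sodium channel of skeletal muscle, Pfkm the muscle phosphofructokinase and Myom2 a protein of the M-band. Scn4a had 5.26, 1.79 and 1.83 CPM in NoUVB, 1.13, 3.62 and 3.25 in UVB-Saline and 4.27, 6.40 and 6.26 in UVB-hCOL3A1. These 12 genes were chosen for likeness over the same 9 libraries, so their order of groups is set by that choice.

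A further list held 34 sarcomere genes, of which 30 were tested. All 30 were likewise higher in UVB-hCOL3A1 than in UVB-Saline, 15 without overlap, against 8.95% of all genes. The list had a median log2 difference of 0.94 and 0 called. Its smallest p-values belonged to Cryab, a small heat shock protein of the Z-disc (0.95 ± 0.21, adjusted p = 0.206), the LIM protein Fhl1 (1.18 ± 0.28, adjusted p = 0.225) and Xirp1 (1.29 ± 0.35, adjusted p = 0.257). Medians were lower in the 17 other excitation and calcium genes (0.55, 15 positive, 8 higher without overlap, among them Cacna2d1, Jph1 and Bin1) and in the 17 other muscle energy genes (0.50, 16 positive, 9 without overlap, among them Cox8b, Fabp3 and Cox6a2). None of those was called in any comparison. Many of these genes are also used outside muscle.

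Among 18 myogenic regulators and satellite cell genes, 8 were tested. Of these, 7 were higher in UVB-hCOL3A1 than in UVB-Saline and 5 did not overlap, against 8.95% of all genes, with 0 called. Mef2c, a muscle transcription factor also made in endothelium and immune cells, had 32.1, 35.1 and 28.5 CPM in NoUVB, 27.1, 30.3 and 36.6 in UVB-Saline and 46.4, 49.0 and 48.9 in UVB-hCOL3A1 (0.62 ± 0.13, adjusted p = 0.201). Myostatin, Mstn, which restrains muscle growth, differed by 1.74 ± 0.40 (adjusted p = 0.206). Counts of Pax7, Myf5 and Myod1 were 0 to 9 per library, too few to compare, and Myog had 21 counts in UVB-Saline 2 and 0 to 7 elsewhere. Of 7 embryonic and regenerating muscle genes 3 were tested. The perinatal heavy chain Myh8 differed from UVB-Saline by 0.74 ± 0.63 (adjusted p = 0.703), Ncam1 by 0.67 ± 0.14 (adjusted p = 0.202) and Tnnt2 by -0.47 ± 0.25 (adjusted p = 0.501), and the embryonic Myh3 had 0 to 9 counts. At the neuromuscular junction 4 of 10 genes were tested. In UVB-hCOL3A1 against UVB-Saline 2 were higher and 2 lower, from -0.416 to 1.345 on the log2 scale, where 46.1% of all genes were higher. Against NoUVB, too, 2 were higher and 2 lower. The agrin receptor Lrp4, also made in skin epithelium, was lower than in NoUVB by -0.67 ± 0.12 (adjusted p = 0.0875), against the direction of the members. Musk and Colq differed from NoUVB by 0.57 ± 0.56 and -1.16 ± 0.54.

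Markers of other cells of the skin also differed in mean level between the groups, with none called. Of all genes tested, 46.1% were higher in UVB-hCOL3A1 than in UVB-Saline, 8.95% without overlap. The share higher than NoUVB without overlap was 10.7%. Between UVB-hCOL3A1 and UVB-Saline, all 10 fibroblast markers were higher in UVB-hCOL3A1, 9 without overlap, with a median log2 difference of 0.78 and summed CPM of 5469 to 6744 against 4376 to 4600. All 14 adipocyte markers were higher, 8 without overlap, with a median of 0.81 and sums of 1112 to 1842 against 663.6 to 962. Macrophage markers had a median of 0.65 and sums of 426.5 to 594.5 against 195.3 to 458.8, and against NoUVB, where sums were 301.2 to 347.8, their median was 0.87 with 7 of 8 not overlapping. Endothelial markers had a median of 0.27 (sums of 255.6 to 316.1 against 219.6 to 317.5) and brown adipocyte markers 0.43 (60.08 to 74.26 against 55.83 to 91.17). In the other direction, 0 of 10 keratinocyte markers were higher (median -0.26, sums of 5479 to 7581 against 6340 to 9299). The smooth muscle markers, which include Des, had a median of 0.28 with sums of 466.5 to 567.5 against 390 to 481.7, tendon and fascia markers 0.37 with 27.14 to 34.25 against 20.02 to 25.65, and Schwann cell markers -0.13 with 115.5 to 147.6 against 117.1 to 155. No defining marker of fibroblasts, adipocytes, macrophages or keratinocytes was at 0 in all libraries. Their part in the muscle gene differences was not tested.

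Against NoUVB, 9 of 10 fibroblast markers were higher in UVB-hCOL3A1, beside 49.2% of all genes, and 2 without overlap, beside 10.7%. Their median was 0.23, with sums of 4816 to 5697 in NoUVB. Dcn, a fibroblast proteoglycan, was 0.93 ± 0.22 higher in UVB-hCOL3A1 than in UVB-Saline (adjusted p = 0.222) and Pparg, the adipocyte regulator, 0.84 ± 0.23 (adjusted p = 0.247). Dcn was the 1 fibroblast marker with a negative difference from NoUVB, -0.12 ± 0.22. The summed adipocyte level of 869.3 to 2110 in NoUVB overlapped that of UVB-hCOL3A1.

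Signs of RNA quality and handling also differed in mean level between the groups. The mitochondrial share of counts without Rn18s-rs5 was 4.26% to 5.57% in NoUVB, 3.14% to 4.84% in UVB-Saline and 2.87% to 3.86% in UVB-hCOL3A1, so that UVB-hCOL3A1 lay below NoUVB without overlap. Of 12 genes of RNA quality and handling (Rn18s-rs5, mitochondrial, immediate early and heat shock genes), 11 were lower in UVB-hCOL3A1 than in NoUVB, with a median of -0.62 and 0 called. Of these, 8 had an unadjusted p under 0.05 and 7 did not overlap, against 5.52% and 10.7% of all genes. In UVB-Saline against NoUVB, 11 were also lower, 2 at an unadjusted p under 0.05 and 3 without overlap, against 4.6% and 6.61% of all genes. Their median there was -0.30. In UVB-hCOL3A1 against UVB-Saline 10 were lower, with a median of -0.22. Of these, 3 had an unadjusted p under 0.05 and 0 were without overlap, against 5.32% and 8.33% of all genes. The mitochondrial mt-Cytb differed between UVB-hCOL3A1 and NoUVB by -0.78 ± 0.21 (adjusted p = 0.196). Their part in the muscle gene differences was not tested.

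**Figure D5:**
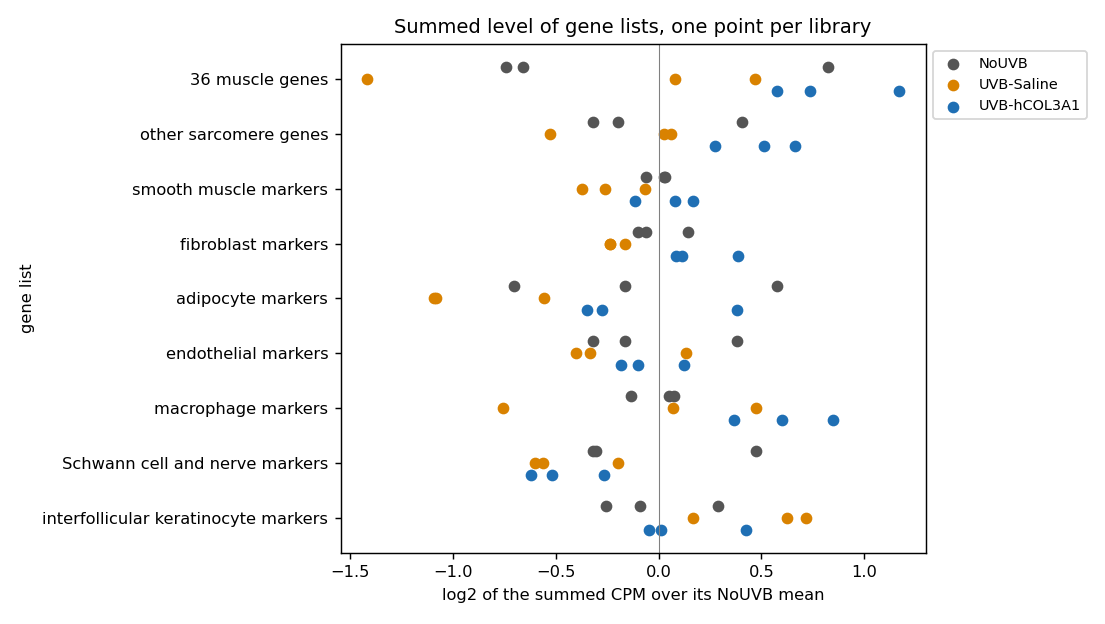
For each gene list, log2 of the summed CPM of a library over the mean of the 3 NoUVB libraries, 1 point per library coloured by group. The muscle genes spread most, UVB-Saline 1 being lowest, and the fibroblast and adipocyte lists also lie higher in UVB-hCOL3A1 than in UVB-Saline, with keratinocyte markers tending the other way.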

How the data were processed

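Total RNA of 9 skin libraries was sequenced as 150 bp read pairs, per the labels' protocols, and groups were taken from the sample titles. All 9 carry 1 batch label. The authors deposited 1 table of estimated counts, not scaled to depth. Build GRCm39, the aligners STAR 2.7.11b and Bowtie2 2.5.4, the quantifier RSEM 1.3.3, fastp 0.23.4 and DESeq2 1.44.0 are listed in the submitters' processing notes. Which annotation was used and whether strand was counted is not stated there. Reads of a gene and an antisense neighbour may therefore be mixed. Estimated counts, of which 11.1% to 14.0% per library were not whole, were rounded. No 2 libraries held like values, with a chi-square per degree of freedom of 8.18 to 250 within groups, so each counted as 1 replicate.

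The fit used R 4.3.3 and edgeR 4.0.16 (filterByExpr, 17168 genes kept, TMM scaling, robust quasi-likelihood, all 9 libraries, 6 residual degrees of freedom, biological coefficient of variation 0.193), two-sided with Benjamini-Hochberg adjustment over all genes tested and 0.05 as the threshold. Differences are fitted log2 values with standard errors. Log2 CPM per library used a prior count of 2. The fit was tested on simulated counts with known changes before use. The members and lists were chosen with earlier results of these data known. Values in every library are given for up to 4 members per direction with the smallest p of a comparison, the member of each role with the highest CPM, the adult myosin heavy chains, and, chosen after their values were seen, Acta1 and Tnnt1. From each other muscle list up to 3 genes with the smallest p are named. Of the marker lists, Dcn and Pparg were chosen to stand for theirs.

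Alternatives were DESeq2 size factors, library size alone, Rn18s-rs5 removed, no filter, at least 1 CPM in 3 libraries, non-robust dispersion, a replicate block, only the 2 groups compared, limma 3.58.1 voom, DESeq2 1.42.0 and leaving out each library. Lengths and coding sequences came from a GENCODE annotation of GRCm38, which is not the build of the counts, and promoters from RefSeq on GRCm38.p6, matched by symbol.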

Additional observations from a re-analysis of the deposited data

How the results depend on the processing

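With 3 libraries a group, the SD between libraries of a group of the median member level was 0.735 on the log2 scale. How far depth and this spread each limit the comparisons was not tested. Genes with few counts, such as Smpx, are read least precisely. The cause of each difference below was not tested.

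Members called lower numbered 0 in every alternative, beside 0% to 0.752% of all genes. Members called higher against UVB-Saline numbered 1 (Mb) with library size alone, beside 0.0932% of all genes, and 2 with DESeq2, beside 1.03%. Against NoUVB they numbered 8 with library size alone, beside 0.67% of all genes, and 1 (Ldb3) with no low-count filter, beside 0.301%. The fit of only the 2 groups called 4 (Pgam2, Ldb3, Des and Smpx), beside 1.72% of genes. Of these, Smpx had entered the test through its UVB-hCOL3A1 level. DESeq2 called 3, beside 1.16%, and fits with a library left out called 0 to 3, beside 0% to 1.02%. Members not overlapping, counted after seeing the data, were 16 with library size alone against UVB-Saline (5.15% of all genes) and 23 to 30 with a library left out (9.33% to 18.5%). Against NoUVB they were 23 with library size alone (3.48%) and 9 to 32 with a library left out (10.6% to 16.9%), and for UVB-Saline against NoUVB 0 to 3 (6.65% to 15.2%). Library size alone moved the median of all genes for UVB-hCOL3A1 against NoUVB to -0.121, and 61%, 53.3% and 72.3% of its calls over all genes were higher, in the order UVB-Saline against NoUVB, UVB-hCOL3A1 against UVB-Saline and UVB-hCOL3A1 against NoUVB, where TMM scaling gave 3 lower, none, and 7 higher.

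Member medians with a library left out were -0.41 to 0.58 for UVB-Saline against NoUVB, 0.64 to 1.38 for UVB-hCOL3A1 against UVB-Saline and 0.68 to 1.62 for UVB-hCOL3A1 against NoUVB. In the same order, genes called over the whole table were 3, 0 and 7, with DESeq2 96, 173 and 269, with library size alone 100, 30 and 159, and with no low-count filter 73, 106 and 178. With a library left out they were 0 to 12, 0 to 78 and 0 to 242. For UVB-hCOL3A1 against NoUVB non-robust dispersion gave 1, voom 0 and only the 2 groups 407.

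The replicate block called 61, 74 and 118 genes in that order and 0 members. The numbers share no stated animal or batch, 5 of 9 same-number pairs correlated above 0.1 (0.018 to 0.41), and 7 of 9 libraries correlated best with their own number.

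Uncalled differences that changed sign were those of Tnnt1 and Myh4 and, between UVB-Saline and NoUVB, of most members. Tnnt1 against UVB-Saline was -0.0060 with library size alone, -0.019 with the replicate block, -0.0143 without UVB-Saline 2 and -0.28 without UVB-hCOL3A1 1, which also gave -0.14 against NoUVB, where the highest value with a library left out was 0.53. Myh4 against UVB-Saline was 0.13 without UVB-Saline 2, 0.30 without UVB-Saline 3, 0.25 without UVB-hCOL3A1 3 and 0.50 with voom, its lowest value with a library left out being -1.01. Without NoUVB 1, UVB-Saline against NoUVB gave 0.20 for Pvalb, 0.47 for Actn3, 0.021 for Casq1, 0.11 for Tpm2, 0.64 for Myh1 and 0.051 for Myh4, and the lowest values with a library left out were -1.50, -1.37, -0.60, -0.51, -0.70 and -1.27. Myh1 was 0.043 without UVB-Saline 1, and Myh2 -0.0141, -0.13 and -0.29 without NoUVB 2, NoUVB 3 and UVB-Saline 2, with a highest value of 0.93. Over all members and alternatives, signs differed in 68 of 626 values in that comparison, 8 of 627 against UVB-Saline and 1 of 627 against NoUVB.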
